A study of Mus musculus with 2 samples.

Results

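The cells described here are neutrophils of the mouse colon, 149 of 3173 cell barcodes kept from 2 single-cell RNA-sequencing libraries. They were chosen by their own counts: S100a8 and S100a9 together had 20 or more UMIs, C1qa, C1qb and C1qc together under 3, Cd79a, Cd79b and Ms4a1 together under 3, and Cd3d, Cd3e and Cd3g together under 2. A UMI is a molecular tag that lets the copies of 1 captured RNA molecule count once. Both libraries came from chimeric mice, CD45.1 recipients whose blood cells had been replaced by CD45.2 donor bone marrow, and cells were collected from the colon lamina propria. The donors of one library lacked the IL-10 receptor (IL-10R KO, an Il10rb knockout, here KO), and those of the other lacked the receptor and ceramide synthase 2, or CerS2, whose products are ceramides with very long acyl chains (IL-10R/CerS2 DKO, here DKO). Both donor groups therefore lacked the IL-10 receptor, and no library with an intact receptor was analysed here. The donor genotype is borne by all blood cells, so other immune cells of the DKO chimeras lacked CerS2 too. Cells had been sorted on CD11b, CD11c and CD64, and the study's gate was meant to leave neutrophils, T cells and B cells out, so the neutrophils are those that passed it. There was 1 library per genotype. Genotype cannot be told apart from mouse, sort or library, no test was run, and every interval is a 95% interval that covers counting error only.

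Neutrophils are short-lived white blood cells that leave the bone marrow, follow chemokines into inflamed tissue, and there engulf microbes, release granule proteins and make cytokines. Granule proteins are transcribed in a set order during maturation in the marrow: those of primary granules first, then those of secondary granules, then those of tertiary granules. Mature neutrophils hold little RNA, and S100a8 and S100a9, the subunits of calprotectin, make up much of it. In the gut, the calprotectin and lipocalin that neutrophils release are used as measures of inflammation.

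S100a8 (ENSMUSG00000056054) and S100a9 (ENSMUSG00000056071) are neighbours on chromosome 3, and Retnlg (ENSMUSG00000022651), a resistin-like secreted protein of neutrophils, is on chromosome 16. The promoters of these 3 genes, which led the neutrophils over other myeloid cells, are shown from RefSeq (GRCm38.p6) as the 250 bases before and 50 after the start site, with matches to a C/EBP motif (TTNNGNAA, either strand) in capitals. C/EBP proteins and PU.1 are transcription factors of the granulocyte lineage.
S100a8 (chr3:90668821-90669120, plus strand): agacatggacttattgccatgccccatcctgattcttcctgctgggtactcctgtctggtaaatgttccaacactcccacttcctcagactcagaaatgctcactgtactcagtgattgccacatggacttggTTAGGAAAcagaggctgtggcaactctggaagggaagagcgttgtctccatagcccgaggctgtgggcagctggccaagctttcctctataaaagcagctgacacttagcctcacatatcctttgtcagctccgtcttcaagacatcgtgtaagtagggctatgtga
S100a9 (chr3:90695672-90695971, minus strand): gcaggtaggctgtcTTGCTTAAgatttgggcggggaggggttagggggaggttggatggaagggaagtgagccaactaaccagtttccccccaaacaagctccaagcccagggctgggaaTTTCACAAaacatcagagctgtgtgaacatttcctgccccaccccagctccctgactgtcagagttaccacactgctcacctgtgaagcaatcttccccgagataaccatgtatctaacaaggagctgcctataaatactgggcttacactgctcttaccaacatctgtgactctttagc
Retnlg (chr16:48872358-48872657, plus strand): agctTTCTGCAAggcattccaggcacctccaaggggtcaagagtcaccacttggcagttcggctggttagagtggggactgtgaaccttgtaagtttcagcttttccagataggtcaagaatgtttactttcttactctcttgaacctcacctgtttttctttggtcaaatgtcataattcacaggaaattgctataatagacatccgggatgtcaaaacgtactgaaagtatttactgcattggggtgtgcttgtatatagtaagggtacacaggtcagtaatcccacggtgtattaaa
The C/EBP letters were found in 5 of the 14 promoters listed for the 15 leading genes (35.7%) and in 40.7% of all 32851 promoters of this length. A PU.1 motif (GAGGAAGT, either strand) was in 1 of the 14, that of S100a8, and in 3.20% of all promoters. These 2 motifs were the only ones searched.

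The KO library held 113 neutrophils among 2443 kept cells, or 4.63% (3.83 to 5.53), and the DKO library 36 among 730, or 4.93% (3.48 to 6.76). The intervals of the shares overlapped. A share in sorted cells depends on the gate, which cannot be told apart from genotype here. The filter on genes and mitochondrial UMIs removed 2 KO barcodes and 1 DKO barcode with enough S100 UMIs, and 3 KO barcodes with enough S100 UMIs were left out by the other limits. The libraries shared 1 barcode sequence, which was not a neutrophil. The members held 96.5% of all S100a8 and S100a9 UMIs of the kept KO cells and 99.2% of those of the DKO cells. Of cells with B or T cell transcripts, 11 of 459 in KO (2.40%) and 6 of 239 in DKO (2.51%) had a UMI of either gene, at median depths of 3340 and 2875 UMIs, and these are cells that should lack both genes.

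Neutrophils were shallow. The median neutrophil held 1700 UMIs in KO against 1690.5 in DKO, whereas Csf1r+ cells, other kept cells with a UMI of the receptor for macrophage colony-stimulating factor, had 5751.5 and 5821. Csf1r+ cells therefore had 3.38 times the UMIs of neutrophils in KO and 3.44 times in DKO. Neutrophils ranged from 756 to 5548 UMIs in KO and from 846 to 3497 in DKO, so that the cells of the 2 libraries overlapped in depth. The median neutrophil had 617 detected genes in KO and 576.5 in DKO, against 1836.5 and 1832 in Csf1r+ cells. With each cell thinned to 500 UMIs, a number that all cells reached, neutrophils still had fewer genes, with a median of 261 in KO and 256.5 in DKO against 336 and 339.

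**Figure D1:**
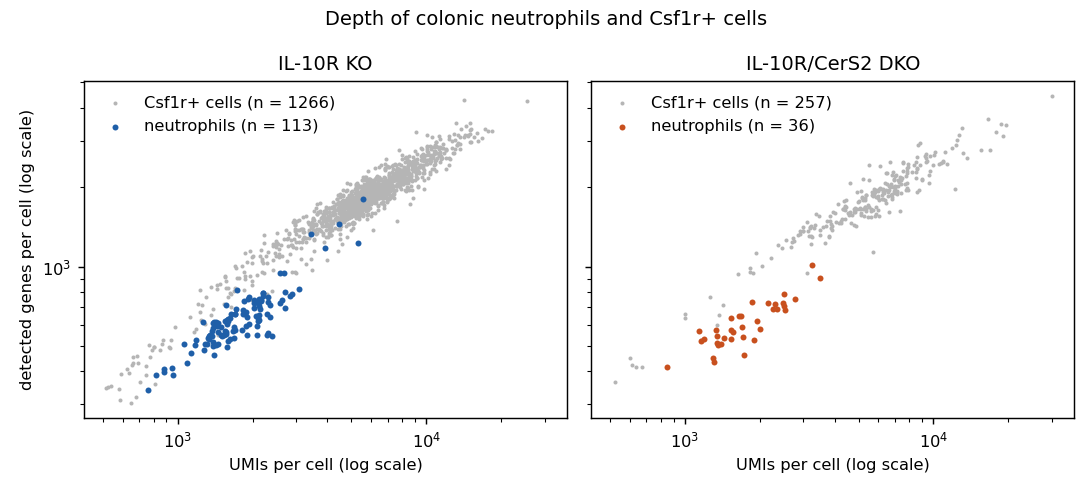
Detected genes against UMIs per cell, both on log scales, for neutrophils (coloured) and Csf1r+ cells (grey) of the KO library (left) and the DKO library (right). Most neutrophils lie at the shallow end and below the band of Csf1r+ cells, around medians of 1700 (KO) and 1690.5 (DKO) UMIs, and some KO neutrophils of high UMI counts reach the band.

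The make-up of the RNA differed from that of Csf1r+ cells as well. Transcripts of ribosomal proteins were 3.43% of neutrophil UMIs in KO and 3.50% in DKO, against 19.0% and 19.8% in Csf1r+ cells. The median neutrophil had a mitochondrial share of 0.225% in KO against 1.23% in Csf1r+ cells, and of 0.110% in DKO against 1.17%. S100a8 and S100a9, on which the cells were selected, made up 9.50% of neutrophil UMIs in KO and 14.1% in DKO. Their sum ranged from 20 to 932 UMIs per cell in KO, with a median of 117, and from 25 to 773 in DKO, with a median of 195.

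Few cells lay near the S100 limit. Just inside it, with 20 to 29 UMIs, were 12 KO and 4 DKO cells, and just outside, with 10 to 19, were 9 KO and 3 DKO cells that met the other limits. G0s2, an inhibitor of triglyceride breakdown that neutrophils express strongly, was found in 10 of the 12 KO cells just inside and in 8 of the 9 just outside. Its transcripts were also in 3 of the 4 DKO cells just inside and in all 3 just outside, so the limit cut through a range of cells with neutrophil genes.

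The label was checked against neutrophil genes that the rule did not use. Retnlg was found in 73 of 113 KO neutrophils (64.6%) and 24 of 36 DKO neutrophils (66.7%), and G0s2 in 103 (91.2%) and 31 (86.1%). Mrgpra2b, a G protein-coupled receptor gene whose near-identical copy Mrgpra2a makes its counts uncertain, was found in 47 KO and 19 DKO cells. Asprv1, a protease gene, was found in 33 and 7. Of the macrophage markers, the rule itself held down C1qa, C1qb and C1qc, and Csf1r defined the cells set beside the neutrophils. Of 6 others, Mrc1 had 0 UMIs in both libraries, Adgre1 1 in each, Fcgr1, which encodes the CD64 of the sort, 1 and 0, Ms4a7 1 and 0, and Apoe 3 and 5. Cd68, a lysosomal protein gene, was the exception, with 37 UMIs in 29 KO cells and 11 in 8 DKO cells. Of the other sorted proteins, Itgam (CD11b) had 43 KO and 16 DKO UMIs, and Itgax (CD11c) 13 and 3. A Csf1r UMI was seen in 16 KO and 6 DKO neutrophils. These 6 markers, without Csf1r, summed to 201 CPM (counts per 1000000 UMIs of the neutrophils) in KO and 257 in DKO, against 4990 and 5358 in Csf1r+ cells and 294 and 376 in cells with B or T cell transcripts. Most of the Csf1r+ sum was Apoe, with 33830 of 38428 UMIs in KO and 7258 of 8627 in DKO. Cd68 stood at 173 CPM in KO neutrophils and 166 in DKO neutrophils, not far below the 244 and 288 of Csf1r+ cells. The 6 monocyte markers summed to 1185 and 696 CPM, against 2881 and 2336 in Csf1r+ cells and 884 and 894 in cells with B or T cell transcripts. Most of this was Plac8, with 229 UMIs in 62 KO cells and 43 in 17 DKO cells. Ly6c2 had 19 UMIs in 9 KO cells and 3 in 1 DKO cell. Its level was 89.0 CPM in KO and 45.4 in DKO, against 173 and 191 in Csf1r+ cells. Fn1 had 3 UMIs in 1 KO cell and 0 in DKO, and Ccr2 2 in KO and 0 in DKO. Vcan and F13a1 were at 0 in both libraries. The 7 MHC class II and dendritic cell markers summed to 642 and 575 CPM, against 33035 and 38859 in Csf1r+ cells. Of these, Cd74 had 81 UMIs in 31 KO cells, with 17 in 1 cell, and 25 in 11 DKO cells, and Flt3, Zbtb46 and Cd209a were at 0 in both libraries. The part of RNA from other cells in these values was not tested. Markers of NK and innate lymphoid cells and of epithelial cells were at 0 in both libraries. The 5 eosinophil markers had 5 UMIs in 5 KO cells and 0 in DKO, or 23.4 CPM in KO against 1.17 in Csf1r+ cells. The 6 B cell markers, some of them limited by the rule, had 21 UMIs in KO, 15 of them Igkc, and 0 in DKO.

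**Figure D2:**
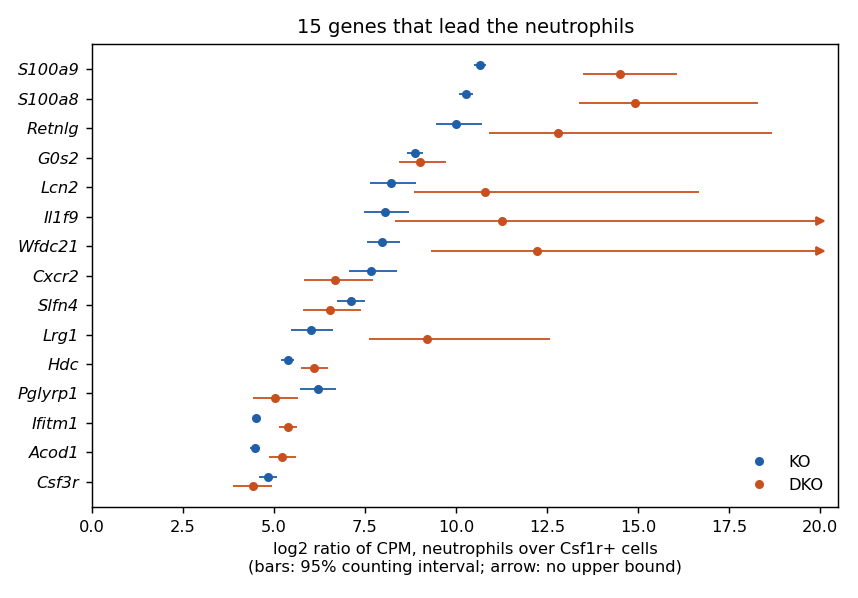
log2 ratio of CPM in neutrophils over Csf1r+ cells for the 15 leading genes, in KO (blue) and DKO (orange), with bars for 95% counting intervals and arrows where there is no upper bound. All 15 genes lie to the right of 4 on the log2 scale in both libraries, with wide bars for DKO genes that were almost absent from Csf1r+ cells.

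Set beside Csf1r+ cells, 507 of 6338 genes were 2-fold or more higher in neutrophils of both libraries (8.0%) and 2418 were lower (38.2%). The median gene stood at -1.06 on the log2 scale in KO and at -0.99 in DKO, and the values below are not corrected for that shift. The neutrophils were selected on S100 counts, so these ratios describe the cells and test nothing. Ordered by the smaller of the 2 log2 ratios, S100a9 led with 10.65 in KO and 14.50 in DKO (13.49 to 16.06), followed by S100a8 with 10.26 and 14.91 (13.38 to 18.28) and Retnlg with 10.00 and 12.80 (10.90 to 18.69). The DKO values rest on 6, 2 and 1 UMIs in Csf1r+ cells. In KO, 1 Csf1r+ cell, kept out of the neutrophils by 4 C1q UMIs, held 329 of the 506 S100 UMIs of all Csf1r+ cells along with 45 G0s2 and 98 Cd74 UMIs. Without that cell the KO ratios of S100a9, S100a8 and Retnlg were 12.49, 11.42 and 12.39, and that of Lcn2 was 9.14. G0s2 stood at 8.86 and 9.01. Lcn2, which encodes the iron-scavenging lipocalin 2, stood at 8.23 and 10.78. Cxcr2, the receptor by which neutrophils follow CXCL1 and CXCL2, stood at 7.67 and 6.67, and Csf3r, the receptor of granulocyte colony-stimulating factor, at 4.84 and 4.41. The other leading genes were Il1f9, Wfdc21, Slfn4, Lrg1, Hdc, Pglyrp1, Ifitm1 and Acod1. All 19 neutrophil identity genes with enough counts in both libraries were 2-fold or more higher than in Csf1r+ cells. A gene nearly absent from Csf1r+ cells could reach enough counts only through the neutrophils, and is then high there. The result for these 19 genes therefore describes the list and is no separate check of the label.

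Genes of the primary and secondary granules had few or no UMIs, with the exception of Lcn2. Of the primary granule genes, Mpo, Elane, Ctsg and Ms4a3 had 0 UMIs in both libraries, which allows up to 14.1 CPM in KO and 45.4 CPM in DKO (3 counts per library), and Prtn3 had 1 UMI in KO. Of the secondary granule genes, Camp had 0 UMIs in both, Ltf 3 in KO and 0 in DKO, Ngp 2 and 4, and Chil3 1 and 0. Lcn2 had 211 KO and 108 DKO UMIs. Of later genes, Mmp9, which encodes gelatinase B, had 82 and 36 UMIs and Mmp8, a collagenase, 18 and 13. The granulocyte surface gene Ly6g had 10 and 4 UMIs.

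Between the libraries, DKO neutrophils held lower levels of several chemokine and cytokine genes and higher levels of Retnlg, Hp and Lrg1. Of 1486 genes with 20 or more UMIs over both sums, 52 were 2-fold or more higher in DKO (3.50%) and 178 lower (12.0%), with a median log2 ratio of -0.035. In simulated Poisson counts of the same totals, where other genes were set to change, 6.75% of genes set as unchanged passed 2-fold, up or down. The simulation held no variation between cells, so 6.75% covers counting error only and is no chance rate for the counts above. Of the 16 cytokine and chemokine genes, 12 had enough counts. Of these, 10 were lower in DKO, 7 of them 2-fold or more, against 12.0% of all genes. The intervals of 9 lay below 0, and that of Ccl6 above it. The share of all genes with such intervals was not counted. Intervals are narrowest for genes with many UMIs, so these counts of intervals describe the list only. The median of the 12 genes was -1.43 on the log2 scale.

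Ccl4, a chemokine that draws monocytes and T cells, had 872 UMIs, spread over 56 of 113 KO neutrophils, and 55 UMIs in 8 of 36 DKO neutrophils. Its level was 4085 CPM in KO and 832 in DKO, and the log2 DKO/KO was -2.28 (-2.72 to -1.90). Thinned to 500 UMIs per cell, a Ccl4 UMI was seen in 42 of 113 KO cells (28.3% to 46.8%) and in 7 of 36 DKO cells (8.19% to 36.0%), and these intervals overlap, against 1.31% and 0% of cells with B or T cell transcripts. The 5 cells with most Ccl4 held 49.0% of the UMIs of the gene in KO, against 92.7% in DKO. As 5 cells are a larger part of 36 than of 113, these shares do not compare the spread between libraries.

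Ccl3, a neighbouring chemokine gene, had 103 UMIs in 15 KO cells and 3 in 1 DKO cell, which gives a log2 DKO/KO of -3.19 (-5.71 to -1.82). Tnf, the gene of tumour necrosis factor, had 40 UMIs in 20 KO cells and 1 UMI in DKO, a ratio of -3.06 (-8.97 to -1.07). Csf1, a growth factor for macrophages, had 61 and 5 UMIs and a ratio of -1.79 (-3.59 to -0.62). The DKO counts of these 3 genes came from 1 or 2 cells each.

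Il1b, the gene of interleukin-1 beta, was found in every neutrophil of both libraries. It had 2891 KO and 709 DKO UMIs, with a median of 23 per KO cell and 17 per DKO cell, and its log2 DKO/KO was -0.34 (-0.46 to -0.22). Cxcl2, which attracts neutrophils, had 1997 and 383 UMIs and a ratio of -0.69 (-0.85 to -0.53). Thinned to 500 UMIs, it was seen in 91 of 113 KO cells (72.0% to 87.4%) and in 18 of 36 DKO cells (32.9% to 67.1%).

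Cxcl10, an interferon-induced chemokine, was found with 520 UMIs in 53 KO cells and with 67 in 7 DKO cells, and its log2 DKO/KO was -1.26 (-1.65 to -0.90). That value depended on the S100 limit. With 10 or more S100 UMIs in place of 20, which added 9 KO and 3 DKO cells, it was -0.13.

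Cells with neutrophil genes but under 20 S100 UMIs were therefore looked at, by 4 definitions, all chosen after the data were seen. The first asked for 3 or more G0s2 UMIs, the second for no Csf1r UMI as well, the third for 5 or more UMIs over G0s2, Csf3r, Cxcr2, Hdc, Retnlg, Mrgpra2b, Asprv1 and Stfa2l1 with no Csf1r UMI, and the last also for under 10 Cd74 UMIs. They gave 40, 31, 47 and 41 cells in KO and 10, 7, 10 and 10 in DKO. Ccl4 stood at 3240, 5550, 2200 and 3867 CPM in the KO cells. In the DKO cells it stood at 137 and 107 CPM by the first and second definitions but at 6658 CPM by the third and the fourth, above KO. Of those 105 DKO UMIs, 103 came from 1 cell, and without it the level was 169 CPM. Cxcl10 behaved alike, with 6277 CPM in DKO by the third and the fourth definitions, against 393 and 690 CPM in KO. Of its 99 DKO UMIs, 95 came from 1 other cell. Without the cell of 103 Ccl4 UMIs, Ccl4 in the S100-low DKO cells was below KO by the third and the fourth definitions. When the S100-low cells were joined to the neutrophils, the log2 ratio of Ccl4 was -2.43, -2.54, -0.78 and -1.04 by the 4 definitions, and that of Cxcl10 was -1.17, -1.29, 0.31 and 0.042. Il1b, lower in DKO above, was at 0.079 by the third definition.

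**Figure D3:**
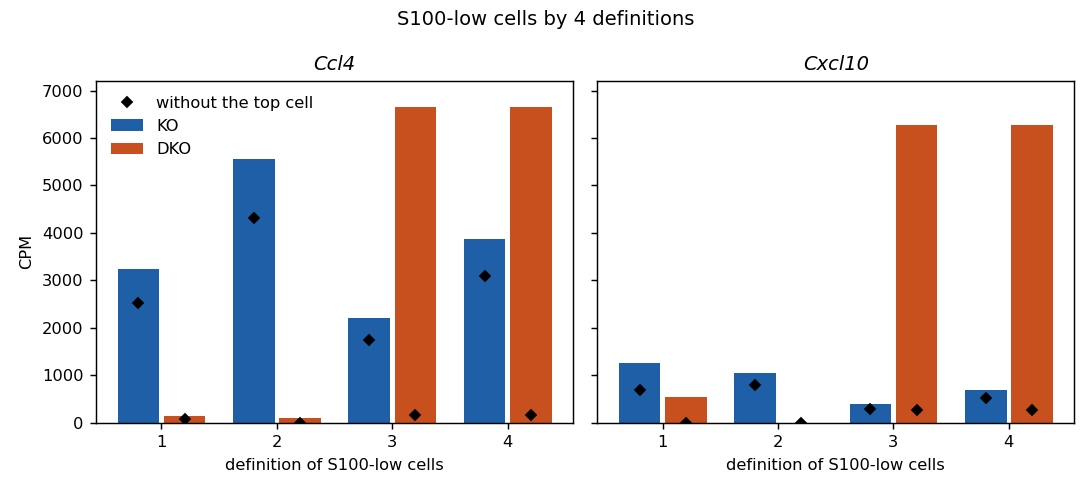
CPM of Ccl4 (left) and Cxcl10 (right) in cells with neutrophil genes but under 20 S100 UMIs, by 4 definitions, as bars for KO (blue) and DKO (orange), with diamonds for the level without the cell that held most UMIs of the gene. DKO bars stand above KO by definitions 3 and 4, at 6658 and 6277 CPM, and their diamonds lie at 169 and 276 CPM.

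**Figure D4:**
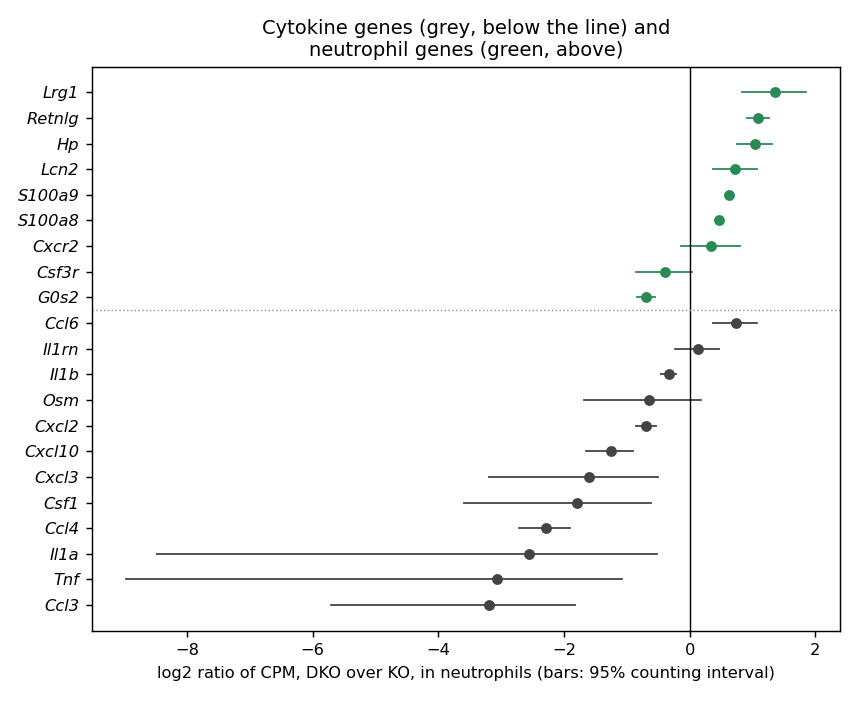
log2 ratio of CPM in DKO over KO neutrophils for the 12 cytokine and chemokine genes with enough counts (grey) and 9 neutrophil genes (green), with bars for 95% counting intervals. Of the cytokine genes, 10 lie left of 0, whereas Lrg1, Retnlg and Hp lie right of 0. The 9 neutrophil genes are a selection, and of these G0s2 and Csf3r lie left of 0. Of the 21 identity genes with enough counts, 12 were higher in DKO and 9 lower.

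Genes higher in DKO included neutrophil genes. Retnlg reached 3129 CPM (668 UMIs) in KO and 6628 CPM (438 UMIs) in DKO, and its log2 DKO/KO was 1.08 (0.91 to 1.26). At 500 UMIs per cell it was seen in 51 of 113 KO cells (35.8% to 54.8%) and in 20 of 36 DKO cells (38.1% to 72.1%). The 5 cells with most Retnlg held 41.3% of the UMIs of the gene in KO and 70.5% in DKO, where 5 cells are a larger part of all neutrophils. Hp, which encodes haptoglobin, had 274 UMIs in 64 KO cells and 174 in 30 DKO cells, a ratio of 1.04 (0.75 to 1.32), and at 500 UMIs was seen in 36 of 113 KO cells (23.4% to 41.3%) and in 22 of 36 DKO cells (43.5% to 76.9%). Lrg1, a secreted glycoprotein, had 76 and 60 UMIs and a ratio of 1.35 (0.84 to 1.86). S100a8 and S100a9 had ratios of 0.46 and 0.63, which the rule bears on. Lcn2 had a ratio of 0.73 (0.38 to 1.07) that changed sign, to -0.17, without the neutrophils with a Csf1r UMI. Other genes went the opposite way, and G0s2 had a ratio of -0.69 (-0.84 to -0.55) and Asprv1 of -1.60 (-2.45 to -0.92). Of the 21 identity genes with enough counts, 12 were higher and 9 lower, with a median of 0.082. The intervals of 3 of the 21 lay above 0 and those of 7 below it, with no such count over all genes to set beside them.

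**Figure D5:**
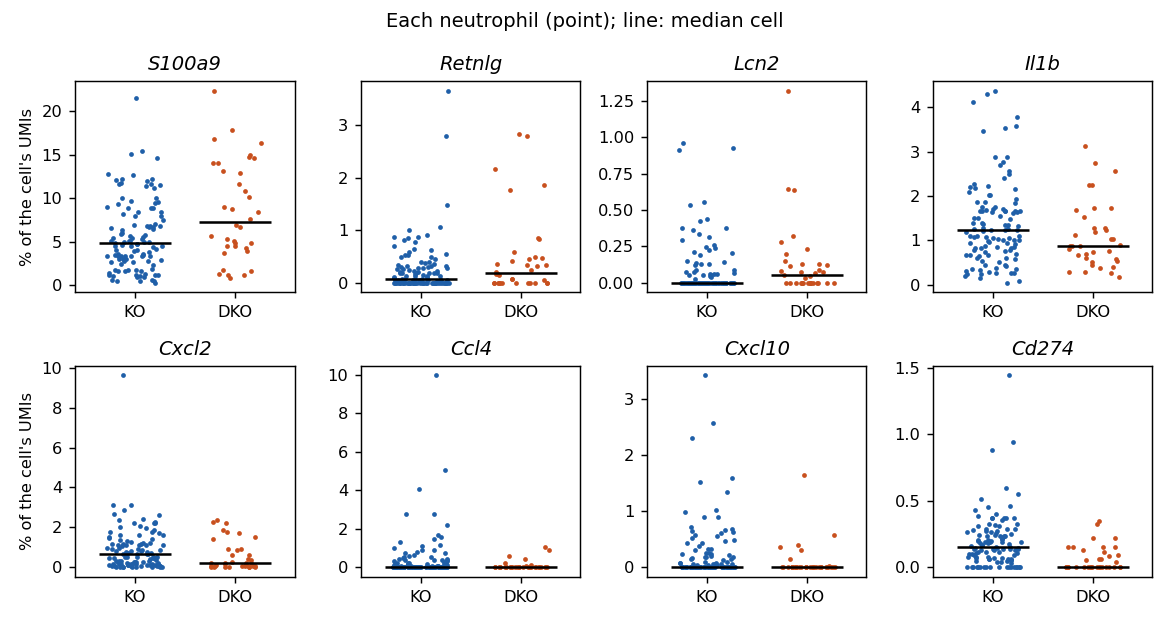
UMIs of 8 genes as a percent of all UMIs of each neutrophil, 1 point per cell, in KO (blue) and DKO (orange), with a line at the median cell. A few cells stand far above the median for Ccl4, Cxcl10 and Retnlg, and the cells of the 2 libraries overlap for each gene.

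Beyond the lists, the lowest ratios were those of Ccl3, Vim, Cdc42ep3, Hilpda, Atp2b1, Ccl4, Arid5b, Tmsb10, Fabp5 and Slfn5. Hilpda, a lipid droplet protein gene induced by hypoxia, was found with 170 UMIs in 42 KO cells and with 10 in 5 DKO cells, which gives -2.33 (-3.48 to -1.48). Vim, the vimentin gene, had 51 and 2 UMIs and was far lower in neutrophils than in Csf1r+ cells (log2 ratios of -2.74 in KO and -6.03 in DKO), and 17 of its 51 KO UMIs came from 1 cell. The highest ratios were those of Mat2b, Tmed5, Lrg1, H2-Q7, Lyz2, Retnlg, Jak1, Hp, Rilpl2 and AB124611. Some of the lowest and highest genes moved the same way in Csf1r+ cells, among them Lyz2 at 0.87 (0.84 to 0.91) and Hilpda at -0.92 (-1.06 to -0.78). In contrast, Vim, Atp2b1, Ccl4, Lrg1 and Hp went the other way there, with intervals off 0. Mat2b, a regulatory subunit of methionine adenosyltransferase, had 25 UMIs in 13 KO cells and 38 in 14 DKO cells, a ratio of 2.29 (1.53 to 3.09). Cd274, which encodes PD-L1 and was chosen after its values were seen, had 389 UMIs in 95 KO cells and 40 in 16 DKO cells, a ratio of -1.57 (-2.10 to -1.12). In the S100-low cells Cd274 stood at 1643, 2507, 1133 and 1810 CPM in KO by the 4 definitions and at 1366, 1706, 2219 and 2219 CPM in DKO, so that DKO was lower by the first and second and higher by the third and the fourth. Without the cell that held most Cd274 UMIs in each library, DKO was at 1653 CPM by the third and the fourth, against 1050 and 1687 CPM in KO.

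Among the 8 recruitment receptors, 7 were lower in DKO, with 2 intervals below 0, and 2 were 2-fold or more lower, against 12.0% of all genes. How many of all genes were lower at all, or had an interval below 0, was not counted. The 2-fold lower genes were Ltb4r1, the leukotriene B4 receptor, with 49 and 4 UMIs and a log2 ratio of -1.77 (-3.85 to -0.48), and Fpr2, a formyl peptide receptor, with 50 and 7 UMIs and a ratio of -1.06 (-2.53 to 0.0032). Cxcr4, which holds neutrophils in the marrow, had 153 and 25 UMIs and a ratio of -0.90 (-1.59 to -0.31). Cxcr2 was the one with a higher value in DKO, at 0.35 (-0.13 to 0.79). All 6 genes of survival and cell death with enough counts were lower, with a median of -0.67 against -0.035 over all genes. Of the 6, 1 gene, Bcl2a1d, was 2-fold or more lower, against 12.0% of all genes. Bcl2l11, at -0.66, promotes cell death, and the others were Cflar, Mcl1 and 3 Bcl2a1 genes. Mcl1, which protects neutrophils from apoptosis, had a ratio of -0.34 (-0.59 to -0.10), and the 3 Bcl2a1 genes are near-identical copies whose counts are uncertain. None of the 7 genes of the NADPH oxidase, which makes the oxidative burst, was past 2-fold, and all 7 intervals held 0. The 11 interferon-induced genes with enough counts split into 5 higher and 6 lower. Among transcription factors, Junb had 694 and 94 UMIs, a ratio of -1.19 (-1.52 to -0.88), and Spi1, which encodes PU.1, a ratio of 0.58 (0.19 to 0.96).

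The genes of the 2 deletions could not be checked in neutrophils. Cers2 had 5 UMIs in KO, or 23.4 CPM, and 0 in DKO, where a count of 0 allows up to 45.4 CPM. Il10rb had 8 KO and 2 DKO UMIs. Of 17 sphingolipid genes, 3 had enough counts for a ratio and 7 had 0 UMIs in both libraries. Cers6, another ceramide synthase, had 53 and 8 UMIs and a log2 ratio of -0.96 (-2.32 to 0.05).

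Neutrophils also differed among themselves when split by Retnlg, a split chosen after the values above were seen and no support for them. The 73 KO and 24 DKO cells with a Retnlg UMI were deeper, with medians of 2031 and 1981 UMIs against 1443 and 1348 in the others. They held more S100a9, with 69549 against 36996 CPM in KO and 107710 against 49117 CPM in DKO. They held less Ccl4, with 3295 against 6067 CPM in KO and 561 against 1668 CPM in DKO. Lcn2 was higher in them, with 1140 against 608 CPM in KO and 2104 against 185 CPM in DKO. The log2 ratio of cells with over cells without Retnlg was -0.76 (-1.42 to -0.075) in KO and 1.23 (-0.12 to 3.34) in DKO for Mmp9, with 4 UMIs in the DKO cells without Retnlg. For G0s2 it was -0.089 (-0.21 to 0.038) in KO and 0.54 (0.21 to 0.90) in DKO, and the difference between libraries was not tested for either gene. Ccl4 was lower in DKO within both kinds of cells, with log2 ratios of -2.53 in cells with a Retnlg UMI and -1.84 in cells without.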

How the data were processed

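Single-cell RNA was measured in 1 library per genotype. The authors made the deposited raw UMI counts per gene (31053 genes) and barcode with Cell Ranger 6.0.1 on mm10, per the labels, from 3′ droplet libraries, and used Seurat 4.3.0 later. The totals were 12549471 UMIs over 2584 KO barcodes and 3414944 over 742 DKO barcodes.

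Kept barcodes had 300 to 5000 genes and no more than 10% mitochondrial UMIs. Members, gene lists and named genes were chosen with earlier results of these data known. UMIs were summed over neutrophils, given as CPM, and compared as log2 ratios with 0.5 added, for genes with 20 or more UMIs. Named beyond the lists were the 10 highest and 10 lowest ratios among genes with 50 or more UMIs found in 10 or more cells of the higher library, without mitochondrial and ribosomal protein genes, and the 15 genes leading over Csf1r+ cells with 50 or more UMIs in each library. Intervals (95%) were exact Poisson for sums, exact conditional for ratios and Clopper-Pearson for shares. A macrophage marker is not reported here. No doublet caller was run: the rule limits C1q, B and T cell transcripts only, so mixtures with monocytes or dendritic cells can remain, and neutrophils with a Csf1r UMI or the most UMIs were left out as alternatives. Ratios and intervals were tested on simulated Poisson counts without variation between cells. Gene positions and IDs came from GENCODE M21 (GRCm38). Python 3.11.15, numpy 2.4.6, scipy 1.17.1, pandas 2.3.3 and matplotlib 3.10.9 were used.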

Additional observations from a re-analysis of the deposited data

Results flagged for a closer look

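Among the 133 named genes with enough counts, 11 had DKO over KO log2 ratios of opposite sign in neutrophils and in Csf1r+ cells, with both counting intervals off 0. The share of all genes that did so was not counted. Some named genes had been chosen by this ratio in neutrophils, and Csf1r+ cells held so many UMIs that small ratios there had intervals off 0. With 1 library per genotype the difference itself was not tested. The ratios in neutrophils and in Csf1r+ cells were those of Vim (-2.67 and 0.62), Atp2b1 (-2.28 and 0.18), Ccl4 (-2.28 and 0.35), Junb (-1.19 and 0.23), S100a11 (0.39 and -0.10), Cd14 (0.42 and -0.30), S100a8 (0.46 and -4.19), S100a9 (0.63 and -3.21), Hp (1.04 and -0.69), Mmp8 (1.24 and -2.27) and Lrg1 (1.35 and -1.83). Vim and Atp2b1 rest on 2 and 5 UMIs in the DKO neutrophils. In the DKO Csf1r+ cells, Mmp8 rests on 1 UMI, S100a8 and Lrg1 on 2 each and S100a9 on 6, and the intervals of Mmp8 (-8.17 to -0.25) and Lrg1 (-5.23 to -0.19) there are wide. One KO Csf1r+ cell held 65.0% of the S100 UMIs of its group, and without it the ratios in Csf1r+ cells were -3.03 for S100a8, -1.37 for S100a9, -2.14 for Mmp8 and -1.69 for Lrg1. Csf1r+ cells exclude the neutrophils, so the S100a8 and S100a9 values there follow from the rule in part.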

How the results depend on the processing

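No paired analysis was possible because each genotype had 1 library, and no library could be left out. With 36 DKO neutrophils and 66081 UMIs, single cells decide many DKO values. Over all alternatives, planned and added after seeing the data, the log2 ratio of Ccl4 ranged from -2.78 to -0.78, Ccl3 from -5.36 to -1.91, Tnf from -4.19 to -1.52, Cxcl2 from -0.90 to -0.26, Retnlg from 0.74 to 1.91, Hp from 0.84 to 1.83 and Lrg1 from 1.18 to 1.83, and none of these 7 changed sign. Cxcl10 ranged from -1.72 to 0.31. With 50 or more S100 UMIs the KO share was 3.77% and Bcl2a1a was at 0.046. With 2 or more Csf1r UMIs the Csf1r+ median was 6115 UMIs in KO and 6246 in DKO. Without the KO Csf1r+ cell of most S100 UMIs, a choice made after seeing the data, 506 genes were 2-fold higher in neutrophils than in Csf1r+ cells (7.98%). Those 2-fold lower numbered 2419 (38.2% of 6338). Between the libraries, genes 2-fold higher and lower numbered 1290 and 1036 with no minimum count (18.2% and 14.6% of 7092). More genes were thus higher than lower without the minimum, unlike with it. With cells thinned to 500 UMIs, where fewer genes were tested, they numbered 33 and 65 (6.26% and 12.3% of 527). With the top cell of each gene left out they numbered 31 and 278 (2.09% and 18.7% of 1486). Thinned, Icam1 was at 0.30 and Il1a at 0.065. Without neutrophils with a Csf1r UMI, Lcn2 was at -0.17. In neutrophils without a Retnlg UMI 81 genes were 2-fold lower (14.3% of 566). In these cells Lcn2 was at -1.51, Isg15 at 0.066, Ifitm6 at -0.90, Ifitm1 at 0.11, Icam1 at 0.095, Cxcl3 at 2.15 and Bcl2a1a at 0.11. With S100-low cells joined, genes 2-fold higher numbered 88 by the first definition (4.45% of 1976) and 80 by the fourth (4.08% of 1959). By the third, 110 were higher and 416 lower (4.95% and 18.7% of 2224). By the third, Cxcl10 was at 0.31, Clec4e at 0.12, Mxd1 at 0.035, Il1b at 0.079 and Ifitm1 at 0.091, and by the fourth Cxcl10 was at 0.042. With 8 neutrophil genes in place of S100a8 and S100a9, Clec4e was at 0.11, Cxcl10 at 0.18 and Ifitm1 at 0.062. The cause was not tested for these changes.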
